A study of Mus musculus with 13 samples.

Results

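RNA precipitated with Z22, an antibody raised against nucleic acid in the left-handed Z conformation, was compared gene by gene with RNA brought down by a control IgG. The comparison took 5 of the 13 libraries of the series, the 4 Z22 libraries and the 1 IgG library. It covered 13568 of the 54532 genes of the count table, those whose CPM (the count of a gene per 1000000 counts of its library) averaged 1 or more over the 5 libraries. A gene was called above or below IgG when its log2 ratio to IgG, taken after adding 0.5 CPM, passed 2-fold in the same direction in all 4 Z22 libraries. The line had to be passed both with libraries scaled by their total count and with the 20 genes of the largest mean share left out of the total. In all, 471 genes lay above IgG (3.47% of those tested) and 72 lay below (0.531%). At any size of difference, 2883 genes (21.2%) were above IgG in all 4 libraries and 3863 (28.5%) were below in all 4. The genes above had a median GC content over exons of 56.1%, against 48.6% over all genes tested, and included Kmt2d, Kdm6b and Tnrc18. The genes below had a median exon length of 999 bases, against 4129, and included the 7SL copies Rn7s1 and Rn7s2, spliceosomal RNAs and Rpl39.

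All libraries came from Yumm1.7, an established mouse melanoma line, so they describe a single line in culture. The Z22 libraries were made from cells given DMSO, ADAR1i-124 (10 μM, 12 h), the demethylating drug 5-Aza-CdR (1 μM, 72 h), or both drugs. ADAR1i-124 is an inhibitor of the RNA editing enzyme ADAR1. In the combination ADAR1i-124 came after 5-Aza-CdR, and its dose is not in the labels. How the cells of the IgG library were treated is not stated. Before precipitation, DNase and the single-strand-specific RNase I were applied, so the counts are of fragments that survived digestion and were recovered. Each condition had 1 library. The 4 Z22 libraries differ in treatment and are not replicates of each other, so no ratio to IgG has a replicate check, and a permutation of 4 libraries against 1 could not give a p below 0.2. Intervals printed beside ratios are 95%, are of the plain ratio with nothing added to the CPM, and cover counting error only.

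Z-RNA is double-stranded RNA whose helix winds to the left. Stretches in which purines and pyrimidines alternate, CG repeats above all, take this form most easily. It is bound by the Zα domains of ZBP1, which starts cell death, and of the long isoform of ADAR1, which edits double-stranded RNA and restrains that response. The J2 antibody, used on the same treatments, recognises double-stranded RNA by its A-form helix.

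The Z22 libraries held 8167960 to 14663357 counts and the IgG library 15324595, so 3 counts correspond to 0.196 CPM in IgG and to at most 0.367 CPM in a Z22 library. The Z22 library of DMSO-treated cells stood apart. Gm42418, a locus that overlaps ribosomal RNA sequence, took 34.9% of its counts, against 10.6% to 15.8% in the other Z22 libraries and 14.2% in IgG. Of the 4 Z22 libraries, it had the lowest log2 ratio to IgG for 9327 of the 13568 genes. The median log2 ratio over all genes tested was -0.76 in this library and -0.03, 0.16 and 0.02 in the other Z22 libraries, in the order ADAR1i-124, 5-Aza-CdR, combination, and -0.37, -0.02, 0.10 and 0.09 with the 20 genes left out of the total. Without it, 710 genes lay above IgG and 74 below. Without the ADAR1i-124 library 756 lay above and 397 below, and the calls without either of the other 2 libraries stayed within 1.5 times those with all 4. Of 7 melanocyte markers only Mitf passed the filter, with 96 to 230 counts in the Z22 libraries and 222 in IgG, and Mlana, Tyr, Tyrp1 and Dct had no count in any of the 5 libraries. None of 5 leukocyte markers passed, each with at most 2 counts a library. Of 5 mesenchymal or neural crest markers 4 passed, among them Vim and Axl, with at least 8847 and 4718 counts. That list took 0.161% to 0.243% of the counts of a Z22 library. Of 3 endothelial and 4 epithelial markers, 2 and 2 passed. These lists took at most 0.00322% and 0.00228% of the counts of a Z22 library, highest with 5-Aza-CdR.

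Coding stretches of 3 leading messages on each side are printed to show the sequence behind the GC contents given further on. Each of the next lines gives 60 bases of coding sequence from the GRCm38 genome, 5′ to 3′ on the strand of the gene, placed around the longest alternating run of purines and pyrimidines among coding exons of at least 60 bases. The run is in capitals. The first 3 genes were above IgG and the last 3 below.
Kmt2d: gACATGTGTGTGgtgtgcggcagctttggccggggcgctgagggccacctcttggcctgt
Kdm6b: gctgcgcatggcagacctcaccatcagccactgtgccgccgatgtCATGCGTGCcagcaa
Avil: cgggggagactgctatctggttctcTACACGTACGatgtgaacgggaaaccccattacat
Rpl39: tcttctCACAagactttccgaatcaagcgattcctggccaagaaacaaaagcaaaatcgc
Rpl22l1: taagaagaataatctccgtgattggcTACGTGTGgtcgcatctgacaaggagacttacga
Cops9: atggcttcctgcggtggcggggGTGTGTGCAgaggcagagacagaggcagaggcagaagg

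The stretches lie at chr15:98859555-98859614 (Kmt2d, minus strand), chr11:69404006-69404065 (Kdm6b, minus), chr10:127010584-127010643 (Avil, plus), chrX:37084029-37084088 (Rpl39, minus), chr3:28807217-28807276 (Rpl22l1, plus) and chr1:92640376-92640435 (Cops9, minus). The longest run was 11, 9 and 10 bases in Kmt2d, Kdm6b and Avil, and 4, 8 and 9 bases in Rpl39, Rpl22l1 and Cops9. Within the printed stretches GC content was 66.7%, 63.3% and 51.7% in the first 3 and 43.3%, 45.0% and 65% in the last 3, so the stretch of Cops9 was richer than those of Kdm6b and Avil. Over the whole coding sequence GC content was 59.4%, 61.7% and 55.6% in the first 3 genes, and 45.1%, 39.9% and 53.0% in the last 3. Coding length went the same way, at 16764, 4923 and 2457 bases against 153, 366 and 300.

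The genes above IgG were led by Kmt2d and Kdm6b. Kmt2d, a histone methyltransferase that marks enhancers, had 12835, 10690, 5393 and 9043 counts in the Z22 libraries, given from here on in the order DMSO, ADAR1i-124, 5-Aza-CdR, combination, and 1561 in IgG. That is 1471, 729, 660 and 989 CPM against 102, with log2 ratios of 3.85, 2.83, 2.69 and 3.27. In the lowest library, that of 5-Aza-CdR, the counting interval of the plain log2 ratio ran from 2.62 to 2.78. Kdm6b, a histone demethylase, had 431, 106, 121 and 249 CPM against 20.03 in IgG, with log2 ratios of 4.39, 2.37, 2.56 and 3.60. In both genes the DMSO library was the highest.

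**Figure D1:**
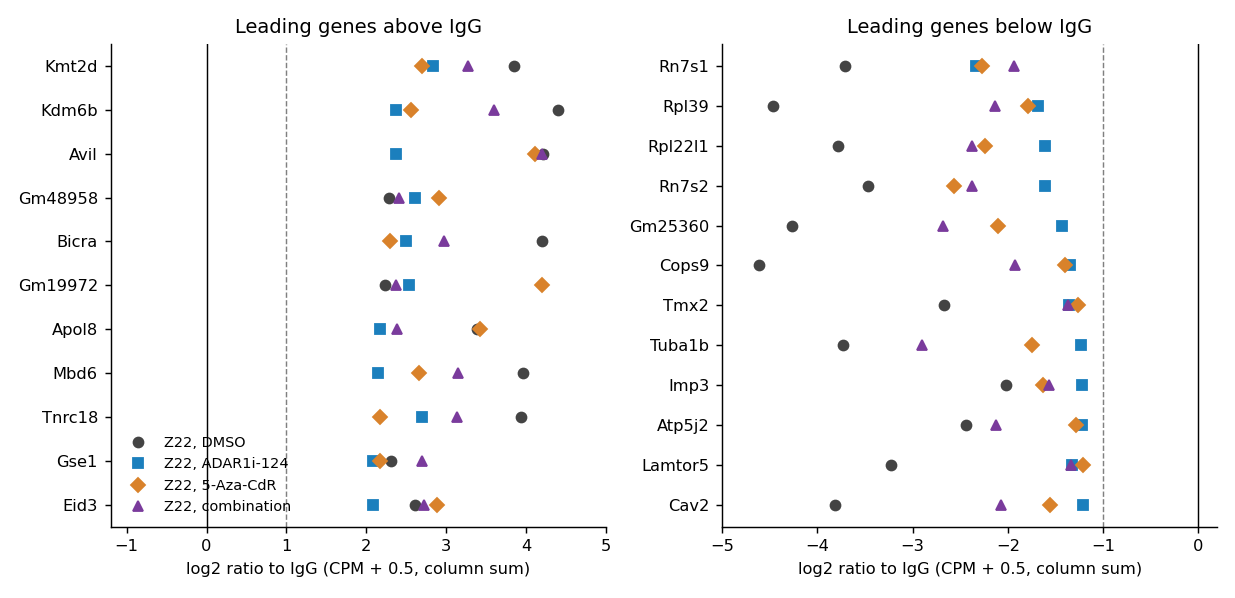
Log2 ratio to IgG (horizontal axis, CPM plus 0.5, scaled by the total count) of 11 of the 12 leading genes above and the 12 leading genes below IgG, among genes that averaged 10 CPM or more. Each symbol is 1 Z22 library, the solid line marks equality with IgG and the dashed line 2-fold. All 4 symbols of each gene lie beyond the dashed line, and below IgG the DMSO library lies farthest out for each of the 12 genes.

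Bicra, a subunit of a chromatin remodelling complex, had log2 ratios of 2.29 to 4.20 over the 4 libraries, and Mbd6, of the family with a methyl-CpG-binding domain, 2.15 to 3.95. Tnrc18 had 2.16 to 3.93 and Gse1 2.08 to 2.70. Avil, which encodes the actin-binding protein advillin, had 150, 65, 131 and 156 counts against 7 in IgG, and the small IgG count left its plain log2 ratio, with nothing added, an interval from 2.18 to 4.38 in the ADAR1i-124 library. Apol8, of the apolipoprotein L family, had 11.5 to 28.0 CPM against 2.15, and Eid3 16.0 to 28.2 against 3.39. Gm48958 and Gm19972, unverified loci of the annotation class TEC, completed the 12, with least log2 ratios of 2.29 and 2.23. Of the 471 genes, 19 were at least 4-fold above IgG in every library under both scalings. Arid1b lay just inside the 2-fold line, with a least ratio of 1.00014, and Zbtb17 just outside, at 0.998913.

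Members of a gene family did not all lie above IgG. The families that follow were chosen after the values were seen and are described without a test. Of the 5 Kmt2 methyltransferase genes, Kmt2a, Kmt2b and Kmt2d were above, beside 3.47% of all genes. Kmt2b had log2 ratios of 2.33, 1.99, 2.30 and 2.18, the most even of the 3. Kmt2c and Kmt2e passed the line with 5-Aza-CdR only, at 1.36 and 1.03, and reached 0.18 to 0.76 and 0.73 to 0.92 in the other libraries. GC content over exons was 58.3%, 58.2% and 50.6% in Kmt2d, Kmt2b and Kmt2a, and 45.4% and 43.5% in Kmt2c and Kmt2e. Of the 7 AP-1 genes tested, which encode immediate-early transcription factors, Fosb, Fosl1, Fosl2 and Junb were above, beside the same 3.47%, and Fos, Jun and Jund were not. Junb had 28.5, 24.1, 24.1 and 86.5 CPM against 6.39, so that its highest library was the combination. Egr1, another immediate-early gene, had 218, 46.6, 84.6 and 169 CPM against 13.6. Of the genes of filamins, which crosslink actin, Flnc was above with log2 ratios of 1.43 to 1.96, while Flna reached -0.03 to 1.03.

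The genes below IgG were led by Rn7s1. This copy of the 7SL RNA of the signal recognition particle had 34, 160, 93 and 133 counts in the Z22 libraries against 873 in IgG, or 3.90, 10.9, 11.4 and 14.5 CPM against 56.97. Its log2 ratios were -3.71, -2.33, -2.27 and -1.93, and no Z22 library came near the IgG level. Rn7s2, another copy, had 8.94, 33.8, 17.1 and 19.6 CPM against 104. The copies are near identical, so reads may be split between them and their separate values are uncertain. Of 4 structured noncoding RNAs of the list that were tested, Rn7s1 and Rn7s2 were below IgG, beside 0.531% of all genes. Rn7sk, the scaffold RNA that holds the elongation factor P-TEFb, had log2 ratios of -2.92, -0.47, -0.53 and 0.49, and Vaultrc5, a vault RNA, -0.76, -1.49, -2.03 and -1.07.

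Of the 12 leading genes below, 9 were protein-coding. Rpl39, a ribosomal protein of the large subunit, had 138, 1641, 847 and 748 counts against 5518 in IgG, with log2 ratios of -4.47, -1.68, -1.79 and -2.13. Tuba1b, an α-tubulin, had 33.1, 190, 132 and 59.3 CPM against 446. Cops9, of the COP9 signalosome, had only 13 counts in the DMSO library against 738 in IgG, and log2 ratios of -1.34 to -1.92 in the other 3. Rpl22l1 had log2 ratios of -1.61 to -3.78. Lamtor5, of the Ragulator complex, reached -1.21 to -3.22, Atp5j2, of the ATP synthase, -1.22 to -2.44, Tmx2 -1.27 to -2.67 and Imp3, of the ribosome biogenesis machinery, -1.23 to -2.02. Cav2, a caveolin, reached -1.21 to -3.81. In each of these genes the library closest to IgG was that of ADAR1i-124 or of 5-Aza-CdR. Akr1c14 lay just inside the 2-fold line, at -1.00188, and Tmem147 just outside, at -0.998514.

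**Figure D2:**
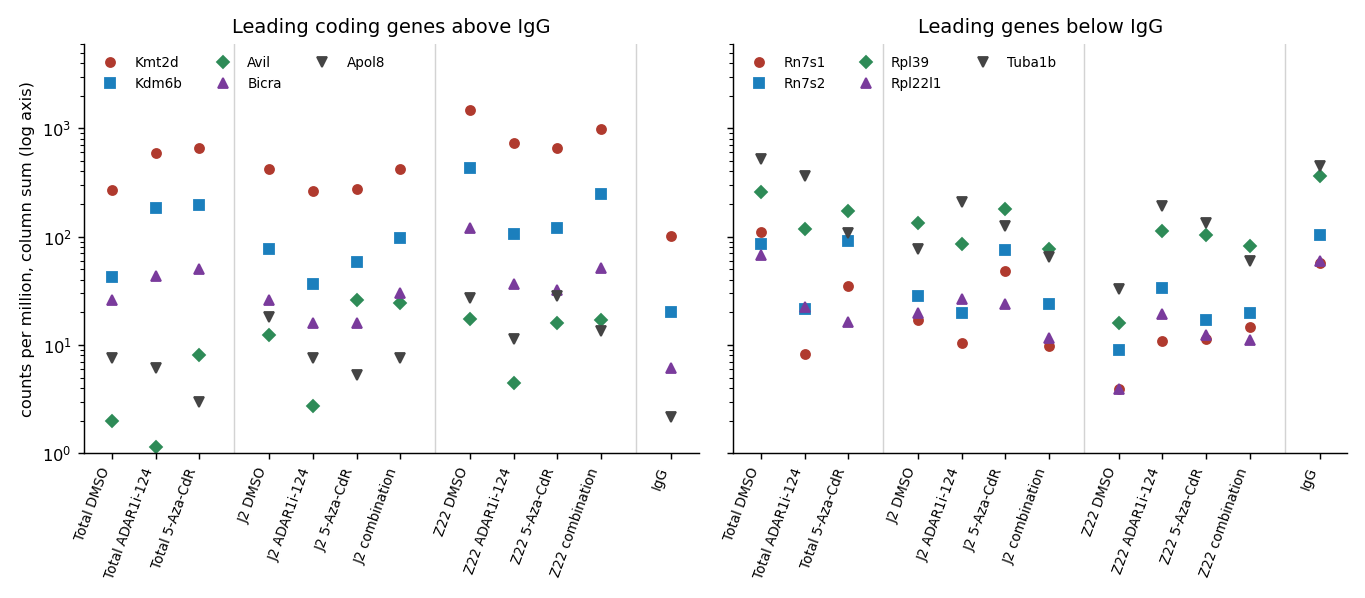
CPM (log axis, scaled by the total count) of 5 leading coding genes above IgG and 5 leading genes below it, in 3 total RNA, 4 J2, 4 Z22 and 1 IgG library along the horizontal axis. Kmt2d stands at 660 to 1471 CPM in the Z22 libraries and 102 in IgG, with total RNA and J2 between 262 and 651, and Rpl39 at 15.8 to 112 CPM in the Z22 libraries and 360 in IgG.

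By gene class, protein-coding genes supplied 364 of the 471 genes above and 39 of the 72 below, out of 11325 tested, which is 3.21% and 0.344% and close to the shares over all genes of 3.47% and 0.531%. Several small RNA classes were below IgG more often than above. Of 25 snRNA genes 7 were below IgG (28.0%) and 1 above, of 39 snoRNAs 5 below (12.8%) and 1 above, and of 16 genes of class misc RNA 3 below, which were Rn7s1, Rn7s2 and Rn7s6. Of 8 scaRNAs, which guide modification of spliceosomal RNAs, 1 was below, Scarna6.

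The snRNA genes below included Rnu1b1, a copy of U1, with 1, 59, 39 and 56 counts against 235, and Rnu12, the U12 RNA of the minor spliceosome, with 0, 13, 3 and 11 against 46. Gm25360 had 19, 273, 94 and 69 counts against 781. The most abundant snRNA gene, Gm22513, did not follow in every library, at log2 ratios of -3.82, -0.43, -0.49 and 0.45. The median of the class was -2.53, -0.92, -0.63 and -0.71 over the 4 libraries, beside -0.76, -0.03, 0.16 and 0.02 for all genes. snRNA genes have many near-identical copies, so the value of a single copy is uncertain. Among snoRNAs, Snord118, the U8 RNA needed for ribosomal RNA processing, had 5, 105, 48 and 60 counts against 264.

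**Figure D3:**
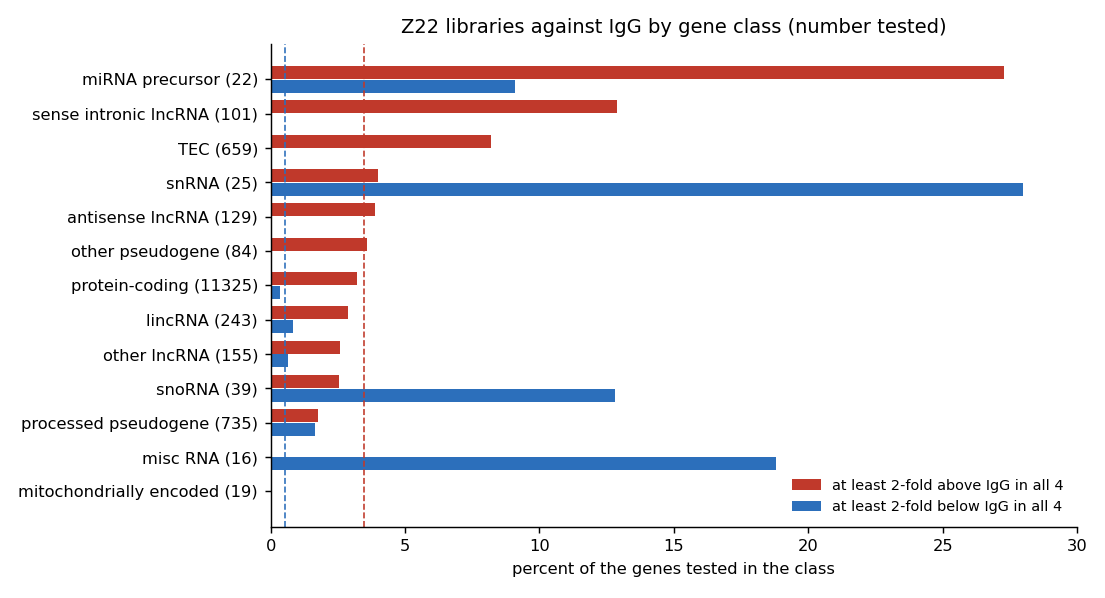
Percent of the genes tested in each class (number in brackets) that were at least 2-fold above (red) or below (blue) IgG in all 4 Z22 libraries, for classes with at least 15 genes. The dashed lines mark 3.47% and 0.531%, the shares over all genes. The snRNA, snoRNA and misc RNA bars reach 28.0%, 12.8% and 18.8% below IgG, and TEC and sense intronic genes have no gene below.

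The classes TEC and sense intronic RNA had calls above IgG and none below. Of 659 TEC loci 54 were above (8.19%) and 0 below, and of 101 sense intronic RNAs 13 were above (12.9%) and 0 below. Most loci of these classes lie inside the span of a coding gene, 553 of the 659 TEC loci and 99 of the 101 sense intronic RNAs. Of the TEC loci inside, 43 were above (7.78%), and of the 106 outside, 11 (10.4%). Of the processed pseudogenes 13 of 735 were above (1.77%) and 12 below (1.63%), and of the 237 inside a coding gene 10 were above (4.22%). The strand setting of the count is not given in the sources used here, so reads of such a locus and of the intron around it cannot be told apart. Most were shallow. The IgG library had a median of 8.5 counts over the 54 TEC loci and of 7 over the 13 sense intronic RNAs. The 6 miRNA precursors above, of 22 tested, had 1 to 4 IgG counts each. A locus under 0.5 CPM in IgG cannot lie 2-fold below it once 0.5 CPM is added, and it passed the filter through the Z22 libraries. This was so for 104 of the TEC loci and 24 of the sense intronic RNAs, which limits the absence of calls below. Among loci with at least 10 IgG counts, 25 of 510 TEC loci (4.90%), 2 of 69 sense intronic RNAs (2.90%) and 0 of 14 miRNA precursors were above, beside 2.59% of all genes at that depth, and 0, 0 and 2 were below, beside 0.561%. In all, 332 of the 471 genes above had at least 10 IgG counts and 12 had none, while all 72 genes below had at least 10.

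Gm37352 was the third TEC locus by its least ratio among those averaging 10 CPM or more, with 122, 202, 225 and 137 counts against 63. Among lincRNAs 7 of 243 were above (2.88%), under the 3.47% of all genes. Lncpint, a long noncoding RNA induced by p53, had 624, 1589, 1509 and 1060 counts against 532, and Gm38399 had 14.2 to 24.4 CPM against 4.50. Of the 7 lincRNAs above, Gm26870 moved most between libraries. It lies at chr9:3000282-3038313 on the minus strand. It had 11.8 and 11.3 CPM in the DMSO and ADAR1i-124 libraries, 229 and 752 in those of 5-Aza-CdR and the combination, and 4.63 in IgG. The J2 libraries held 29.4, 46.9, 1987 and 1932 CPM of it in the same order, and total RNA of the first 3 treatments 0.529, 0.341 and 13.3. In both precipitations the libraries with 5-Aza-CdR were the high ones.

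The named long noncoding RNAs were mixed. Of 10 tested, 0 passed the line in all 4 libraries in either direction. Malat1, a nuclear RNA, had 10298, 6715, 17207 and 15787 CPM against 3977, above IgG in each library but under 2-fold with ADAR1i-124. Neat1, the scaffold of paraspeckles, had log2 ratios of 0.90, 1.61, 3.08 and 3.24. Kcnq1ot1 had -0.34, 1.28, 1.85 and 1.32, so that its DMSO library lay on the other side of IgG. Gas5 lay below in all 4, at -1.37, -0.23, -0.50 and -0.89.

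The other gene lists were described by their counts and medians. Of 81 cytoplasmic ribosomal protein genes, 5 were below IgG (Rpl39, Rpl22l1, Rps14, Rps27 and Rpl35a). That is 6.17%, beside 0.531% of all genes, and 0 were above, beside 3.47%. The medians were -1.82, -0.64, -0.90 and -1.04, and 72 of the 81 (88.9%) lay below IgG in all 4 libraries at any size, beside 28.5% of all genes. Rps14 had 552, 6198, 3868 and 3600 counts against 14685. The most abundant gene of the list, Rpl4, was an exception in the DMSO library, with log2 ratios of 0.23, -0.35, -0.37 and -0.71. Of 51 replication-dependent histone genes, 28 (54.9%) lay below in all 4 libraries at any size, beside 28.5% of all genes. Past 2-fold there was 1 (1.96%, beside 0.531%), Hist2h2bb, with 3, 92, 11 and 5 counts against 352. The histone medians were -2.18, -0.08, -1.94 and -1.57, so the ADAR1i-124 library was level with IgG and the other 3 were not.

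Of 13 abundant messages often used as references, 9 (69.2%) were below in all 4 libraries at any size, beside 28.5% of all genes. Past 2-fold there was 1 (7.69%, beside 0.531%), Tuba1b. Gapdh, a glycolytic enzyme, had 340, 1799, 1686 and 1388 CPM against 3002. Actb, cytoplasmic β-actin, stayed closer to IgG, at log2 ratios of -0.79, 0.02, -0.11 and -0.31, as did Pkm, pyruvate kinase, at 0.07, -0.09, -0.12 and -0.29. Among 10 messages with a known hairpin, such as the iron-responsive elements of ferritin, 7 were below at any size, beside the same 28.5%, and 0 past 2-fold. Fth1, ferritin heavy chain, had log2 ratios of -1.92, -0.67, -0.26 and 0.05, and Ftl1, its light chain, -1.32, -0.84, -0.69 and -0.44.

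Messages of the cell's sensors of Z-RNA and double-stranded RNA followed no common direction. Of 8 genes, 0 passed 2-fold in all 4 libraries. Zbp1 had 172, 73, 317 and 820 counts against 142, or log2 ratios of 1.05, -0.83, 2.01 and 3.21. Total RNA of DMSO, ADAR1i-124 and 5-Aza-CdR cells held 25.1, 0.681 and 111 CPM of it, so the library below IgG was that of the treatment with the lowest total. Adar had log2 ratios of 0.17, -0.09, 0.86 and 1.10. The 9 interferon-stimulated genes had medians of 0.03, -0.90, 0.42 and 0.98, with 0 past the line, and Irf7 had 1.26, -0.65, 1.24 and 2.47. Of the 3 genes known to host heavily edited RNA, Wdr76 had -2.90, -0.46, -0.85 and -2.01, Gnl3l -1.64, -0.31, -0.60 and -0.86, and Iws1 0.46, 0.33, 0.31 and 0.03. None passed the line.

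Matrix messages differed among the Z22 libraries. Of the 10 collagen and matrix genes of the list only Col1a1, a fibrillar collagen, passed above IgG, beside 3.47% of all genes. It had 583, 24, 122 and 191 counts against only 5 in IgG. Col5a1 had log2 ratios of 3.15, 2.03, 0.91 and 1.14, and Fn1, fibronectin, 2.56, 1.01, 0.23 and 0.17. The DMSO library held the highest ratio of Col5a1 and Fn1, and the list median was 2.71 there against 0.76, -0.59 and 0.42. Of 305 zinc finger genes of the Zfp series, 11 were above (3.61%) and 0 below, near the share over all genes. Zfp609 was among them, at 1.87, 1.36, 1.47 and 1.20.

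The median of the mitochondrial messages lay on different sides of IgG in different libraries, and the summed share of all mitochondrial genes turned from below to above IgG in 3 of the 4 Z22 libraries when the 20 genes of the largest mean share were left out. Of 19 mitochondrially encoded genes, 0 were called in either direction. The 13 mitochondrial messages had medians of -2.06, 0.45, 0.46 and -0.08. mt-Rnr2, the large mitochondrial ribosomal RNA, had log2 ratios of -2.23, -0.41, -0.42 and -0.07. All mitochondrially encoded genes together took 1.67%, 4.94%, 5.27% and 5.93% of the Z22 counts, 6.30% of IgG (95% Wilson interval 6.29% to 6.31%) and 6.52% to 7.25% of the J2 libraries. Without those 20 genes, which include mt-Rnr1, mt-Rnr2 and mt-Co1, the Z22 shares were 0.242%, 0.807%, 0.815% and 0.603% against 0.566% in IgG, so that 3 of the 4 lay above it. Over all counts each Z22 share lay below each J2 share, by 2.39 percentage points on average, and an exact two-sided permutation test gave p = 0.0286, the smallest that 4 against 4 allows, and 0.171 after Benjamini-Hochberg adjustment over 12 measures, so the difference does not pass. The measures were shares of counts by class and the contrasts by GC content and length given further on, and none passed after adjustment. With 4 against 4 a measure could pass only if most of the 12 reached the smallest p. The DMSO library had the lowest share, and without it the difference was -1.47 points. Without the 20 genes the Z22 and J2 shares overlapped, with a difference of -0.357 points and an exact permutation p of 0.171.

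The genes above IgG were GC-rich and long, though with total RNA as the reference the Z22 values did not rise with length. Exon length and GC content were taken from the annotation and did not enter the rule. The 364 coding genes above had a median GC content of 57.1% (quartiles 54.6% and 59.0%), against 49.1% for the 11325 coding genes tested and 48.3% for the 39 below. Their median exon length was 6420.5 bases, against 4650 for all coding genes and 1499 for those below. The transcript with the most exons had a median of 16 in the genes above, 10 in all and 4 in those below. Of the 364, 253 (69.5%) came from the GC-richest of 5 equal bins of coding genes, above 54.9% GC, and 0 from the poorest bin, below 43.5%. Of the 39 below, 29 (74.4%) came from the shortest of 5 equal bins of exon length and the other 10 from the bin above it.

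**Figure D4:**
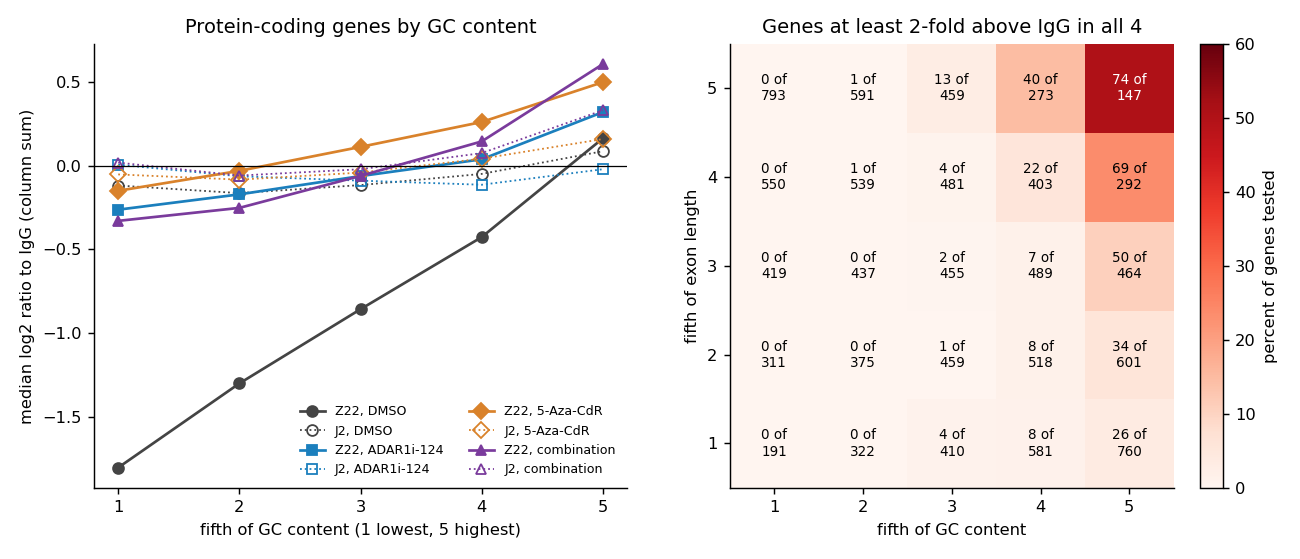
Left, the median log2 ratio to IgG (vertical axis, total count scaling) of coding genes in each of 5 equal bins of GC content, with filled symbols and solid lines for the 4 Z22 libraries and open symbols and dotted lines for the 4 J2 libraries. Right, the number and percent (color) of coding genes at least 2-fold above IgG in all 4 Z22 libraries by bin of GC content and of exon length. The Z22 lines rise from the lowest to the highest bin, most steeply with DMSO, and 74 of 147 genes in the longest and GC-richest corner were above.

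Length and GC content were then combined. Of the 147 coding genes that were in the longest and in the GC-richest bin, 74 (50.3%) were above IgG, and of the 760 in the shortest and GC-richest, 26 (3.42%). Of the 793 in the longest and GC-poorest, 0 were. The median log2 ratio rose with each bin of GC content in every Z22 library, from -1.80 to 0.16 with DMSO, -0.26 to 0.32 with ADAR1i-124, -0.15 to 0.50 with 5-Aza-CdR and -0.33 to 0.61 with the combination. The J2 libraries, which share the IgG reference, went from -0.12 to 0.09, 0.01 to -0.02, -0.05 to 0.16 and 0.02 to 0.33. With length the Z22 medians also rose, from -1.21 to -0.53, -0.32 to 0.19, -0.32 to 0.47 and -0.33 to 0.17, and the J2 medians rose from -0.40 to 0.25, -0.30 to 0.17, -0.18 to 0.13 and -0.27 to 0.30. Against total RNA of the same treatment (DMSO, ADAR1i-124, 5-Aza-CdR) the Z22 medians did not rise, going from -1.06 to -1.17, -0.13 to -0.37 and -0.09 to -0.27. IgG fell with length against these total RNA libraries, from 0.08 to -0.68, 0.17 to -0.57 and 0.12 to -0.77.

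The rise with GC content was also measured within each library, with no IgG reference, as the median log2 CPM of the GC-richest less that of the GC-poorest bin. It was 0.57, -0.89, -0.87 and -0.53 in the Z22 libraries and -1.18, -1.54, -1.26 and -1.10 in the J2 libraries, with -1.47 in IgG and -1.83, -1.24 and -0.95 in total RNA. All 4 Z22 values lay above all 4 J2 values, by 0.84 on average. The exact two-sided permutation p was 0.0286, the smallest that 4 against 4 allows, and 0.171 adjusted over the 12 measures. The difference does not pass the correction, which at that floor it could do only if most of the 12 measures reached it too. Paired by treatment, exact sign flips of the 4 differences gave p = 0.125 for this contrast and for the mitochondrial share, the smallest that 4 pairs allow. Without the DMSO library the difference was 0.51, and the smallest p that 3 against 4 allows is 0.0571. The same measure for length was 2.15, 2.06, 2.24 and 2.09 in the Z22 libraries and 2.16, 2.03, 1.84 and 2.11 in the J2 libraries. IgG was lower, at 1.505, and total RNA higher, at 2.35, 2.33 and 2.44. Z22 and J2 differed by 0.10 on average, with an adjusted permutation p of 0.557.

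Sequence features tied to the Z form were counted in the same exons. Every start position was counted, overlapping ones included, so a longer run counts more than once and the rates are not numbers of runs. CGCGCG, which reads the same on both strands, occurred 13.1 times per 100 kb of exon in the coding genes above, 11.2 in all coding genes tested and 34.1 in those below. At least 1 copy was present in 42.9%, 32.8% and 28.2% of the genes. The rate in those below rests on 39 genes with a median exon length of 1499 bases, so on little sequence. Within the longest and GC-richest bin CGCGCG occurred 15.3 times per 100 kb in the 74 genes above and 15.1 in the 73 not above. GT repeated 6 times, or CA on the other strand, began at 38.01 positions per 100 kb above and 44.0 in all coding genes. In the 107 genes above that are not coding there were 137.7 such positions per 100 kb, against 69.7 in all 2243 such genes tested. At least 1 was present in 25.2% against 13.2% of the genes. Of these 107 genes 39 had at least 10 IgG counts, and the others passed the filter on low values mainly through the Z22 libraries. In the 39 there were 134.1 such positions per 100 kb, against 67.8 in all 1895 such genes with that many IgG counts. The longest alternating run had a median of 13 bases in the coding genes above and in all coding genes, and of 11 and 10 bases in the genes that are not coding. The share of repeat-masked bases had a median of 7.48% in the coding genes above and 10.9% in all coding genes, and of 15.9% above and 14.6% in all among the genes that are not coding. These are descriptions of annotated exons, and reads of introns are not in them.

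The genes above and below IgG were next set beside the other libraries, as a description only, because the same IgG and Z22 values chose them. Over the 471 genes above, the median log2 ratio of J2 to IgG was 1.19, 0.71, 0.90 and 1.34, and at most 0.12 in any library over all genes, and the Z22 medians of the same genes were 1.82, 1.39, 1.80 and 1.81. Over the 72 below it was -1.38, -1.23, -0.90 and -1.69. The J2 and Z22 ratios share the IgG library. Z22 exceeded J2 of the same treatment in all 4 treatments for 326 of the 471 genes (69.2%) and for 12.2% of all genes. It was under J2 in all 4 for 21 of the 72 genes below (29.2%) and for 19.2% of all genes.

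The IgG library was the lowest of 12 libraries for 409 of the 471 genes (86.8%), against 12.1% of all genes, and the highest of 12 for 44 of the 72 (61.1%), against 7.29%. Against total RNA, IgG had medians of -0.93, -1.43 and -1.80 over the genes above, and Z22 had 0.96, 0.02 and 0.06 for DMSO, ADAR1i-124 and 5-Aza-CdR. Over the genes below, in the same order, IgG had 0.42, 1.48 and 1.35 and Z22 had -2.73, 0.17 and -0.03. Total RNA of the same treatment was then the reference in place of IgG. Of all 13568 genes tested, 65 were at least 2-fold above in the 3 Z22 libraries and 94 below. Of the 471 genes above IgG 12 were among the 65, and of the 72 below 1 was among the 94. For instance, Kmt2d stood at 269, 592 and 651 CPM in total RNA, below Z22 in each treatment but within 2-fold in 2 of them. By this measure 12 of the 471 genes above IgG were also above total RNA.

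The 12 genes above both references were Col7a1, Ppfia4, Rrbp1, Crybb3, Necab2, Safb2, Espnl, Eppk1, Sptbn5, Gm23834, Gm26870 and Gm37422, named after their values were seen. Necab2 had no IgG count and Crybb3, Espnl and Gm23834 had 1, 1 and 5. Ppfia4, Eppk1 and Gm37422 had 6, 6 and 7, so the ratios of all these genes to IgG rest on few counts. Of the rest, Sptbn5 had the fewest IgG counts, at 14. Rrbp1, a ribosome-binding protein of the endoplasmic reticulum, was the most abundant, with 1827, 779, 842 and 928 CPM in the Z22 libraries, 284 in IgG and 283, 168 and 366 in total RNA. Safb2, a scaffold attachment factor that binds RNA, had 148, 115, 145 and 133 CPM, against 29.4 in IgG and 48.8, 56.99 and 70.7 in total RNA. Col7a1, an anchoring collagen, had 48.8, 42.5, 83.7 and 40.5 CPM against 13.1 and 11.6, 15.4 and 24.0. The single gene below both was Tmsb4x, which encodes the actin-binding peptide thymosin β, with 21.1, 109, 103 and 87.8 CPM against 219 in IgG and 247, 280 and 264 in total RNA.

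As an alternative to the fold line, an edgeR quasi-likelihood fit with antibody as its only term treated the 4 Z22 libraries as standing for each other and assumed that the lone IgG library varies as they do. With Benjamini-Hochberg adjustment it called 0 of 13568 genes at an adjusted p under 0.05, with a smallest adjusted p of 0.598. The same Z22 and IgG libraries chose the 471 genes above and the 72 below, so the fit is no separate support for those genes.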

How the data were processed

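The authors deposited 1 table of raw counts per gene, to which no normalization had been applied. Paired reads of 150 bases from ribosome-depleted total RNA libraries were mapped with STAR to mm10 in the mRNA-seq and noncoding RNA-seq pipelines of snakePipes. Which counting tool and strand setting made the table is not given in the sources used here. Genes were named from GENCODE M21, which held 54495 of the 54532 identifiers, and lengths, GC content and sequences came from the GRCm38 genome. Samples were grouped by their labels, and all columns of the table belonged to a sample. The total RNA library of the combination was not used. It held 1245894 counts, 22.6% of them from antisense RNAs, against 0.106% to 0.176% in the Z22 and IgG libraries. Log2 ratios were taken after adding 0.5 CPM. The members, lists and classes were chosen with earlier results of these data known. Named genes were the 12 above and the 12 below IgG with the largest least extreme ratio among genes that averaged 10 CPM or more, the first 3 of each class, all genes of a list of up to 8 and at most 5 of a longer one. Genes called in a list and family members beyond these were chosen for naming once values were known. The alternatives used edgeR 4.0.16 (TMM factors and a quasi-likelihood fit) and DESeq2 1.42.0 (size factors). Exact two-sided permutation tests used scipy 1.17.1. The call rule and the edgeR fit were tested on simulated counts. Some genes and sequences that the naming rule selects are not reported here.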

Additional observations from a re-analysis of the deposited data

Results flagged for a closer look

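The 4 mitochondrially encoded tRNA genes tested had a median log2 ratio to IgG that averaged -0.98 over the Z22 libraries and 1.07 over the J2 libraries, with all 4 Z22 libraries below IgG and all 4 J2 libraries above. The same held for mt-Tw, the tryptophan tRNA, with 12, 74, 47 and 38 counts in the Z22 libraries, 141 in IgG and 624, 356, 190 and 235 in the J2 libraries, and means of -1.22 and 1.37. It held for mt-Tm, the methionine tRNA, with 0, 21, 10 and 8 counts, 30 in IgG and 58, 91, 59 and 31 in J2, and means of -0.998 and 0.982. These differences between the antibodies were not tested, and both ratios share the IgG library. Of the 13568 genes, 49 lay below IgG in all 4 Z22 libraries and above it in all 4 J2 libraries, and 4 lay the other way.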

How the results depend on the processing

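The counts of genes at least 2-fold above and below IgG, 471 and 72, stayed within 1.5 times under edgeR's TMM (503 and 98), DESeq2 size factors (525 and 87), a pseudocount of 0.1 (666 and 82) and no filter on low values (485 and 80). They moved to 254 and 43 with a pseudocount of 2, to 312 above with a mean of at least 5 CPM, to 2883 and 3863 at any size, to 19 and 1 at 4-fold, to 65 above with total RNA as the reference, and to 0 and 0 in the edgeR fit, where 949 genes had an unadjusted p under 0.05. Leaving out each Z22 library gave 523 to 756 above and 74 to 397 below. The all-gene median, averaged over the 4 libraries, was -0.15 by total count, -0.04 with TMM and -0.01 with DESeq2 size factors. The median of miRNA precursors, 1.71 with a pseudocount of 0.1, was 0.62 with 2. The lincRNA share of Z22 less J2, 2.24 points with all genes, was -0.11 without the 20 genes. The median exon length of coding genes above was 6954 with at least 10 IgG counts, 7179 with at least 5 CPM and 5835 to 6495 without each library, and 1466 to 2473 for those below. Of 868 values for the 124 named genes, 865 stayed within their spread and 3 did not (Zfp462, Pkm and Kmt2b under DESeq2 size factors). The causes were not tested. No paired analysis was possible because, against IgG, there is 1 library without a stated treatment and the labels carry no replicate numbers. Z22 and J2 can be paired by treatment, and an exact sign-flip test of the 4 pairs, added after seeing the data, gave adjusted p = 0.5 for the mitochondrial share and for the GC contrast, which passed in neither form. Depth limits the genes with few IgG counts, since 332 of the 471 had at least 10.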
